A study of Drosophila melanogaster with 6 samples.

Results

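Pericentromeric heterochromatin is the compact, repeat-rich chromatin on both sides of a centromere. HP1a, the protein encoded by a suppressor of variegation gene, binds methylated histone H3 there and is known both for keeping repeats and inserted euchromatic genes silent and for supporting the transcription of genes that normally reside in heterochromatin. The values below describe 4 genes of chromosome 2 that lie in or close to this chromatin: CG31600, CG11634, CG30440 and Cht3. They were picked by symbol and position from the 535 features (489 genes and 46 repeat consensus sequences) that the authors' deposited table lists for HP1a RNAi against GFP RNAi. That table holds only features with an adjusted p below 0.05, or 6.46% of the 8287 tested, so each member had to differ in this contrast. The levels and differences of the members are therefore given as a description, with no test.

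S2 cells, a Drosophila line made from late embryos and resembling blood cells, were grown at 25 °C with 10% serum and took up double-stranded RNA with a transfection reagent for 5 days before polyadenylated RNA was sequenced. The HP1a RNAi group received RNA against HP1a, and the GFP RNAi group received RNA against GFP as the control. Each group had 2 libraries, and all cells, the controls included, went through transfection and RNAi. Another group was labelled dKDM4A RNAi (2 libraries) and was compared with the same GFP RNAi libraries in a table of its own. Whether a group's pair of libraries stems from different cultures is not in the labels, and the spread between them may be technical.

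Values are normalized counts, which the authors scaled by library size factors. For HP1a RNAi and its controls a single read was worth between 0.807 and 1.39 normalized counts, and the median listed feature held between 745 and 1391 reads per library. The targeted HP1a gene had 12834 and 15705 normalized counts in HP1a RNAi, against 21963 and 25507 in GFP RNAi, so 60.1% of its control level was left. Of 8 haemocyte markers 2 were listed as higher, Pxn and drpr. Their mean normalized counts ranged from 17862 to 370517 in HP1a RNAi and from 12210 to 163909 in GFP RNAi. Of the markers of other cell types, 2 of 3 for crystal cells (PPO2, lz) and 3 of 4 for the germline (vas, zpg, osk) were listed as higher, 1 of 3 for muscle (bt) as lower, and 0 of 3 for fat body and 0 of 2 for neurons were listed. The mean levels of these listed markers lay between 59.7 and 709 in HP1a RNAi and between 14.2 and 890 in GFP RNAi, and their part in the results was not tested. Of all tested features 4.18% were listed as higher and 2.28% as lower, but how many of the markers were tested is unknown. Kdm4A went against its label, at 2.86 times the GFP RNAi level in the libraries labelled dKDM4A RNAi. None of the 4 members was among the 90 features listed for those libraries (1.19% of 7533 tested), and neither was any gene with a start site within 1 Mb of the boundaries used below.

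The members lie at different depths. The rounded boundaries between euchromatin and heterochromatin used here were 22 Mb on arm 2L, with heterochromatin beyond it, and 5.4 Mb on arm 2R, with heterochromatin below it. By the BDGP6 (dm6) annotation, whose gene positions equalled those in the file for 484 of 487 genes with a position, CG31600 spans 21914269 to 21915358 on the minus strand of 2L. CG11634 spans 21916300 to 21920324 on its plus strand. Their start sites were 84.6 kb and 83.7 kb outside the heterochromatic side. CG30440 spans 5468319 to 5495861 on the minus strand of 2R, with its start site 95.9 kb outside. Cht3 spans 22999574 to 23025915 on the minus strand of 2L, and its start site was 1.03 Mb inside. The label of an edge gene thus describes CG31600, CG11634 and CG30440 by position, whereas Cht3 was a gene of the interior.

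CG31600 (FBgn0051600 in the file), which RefSeq also lists as Tsp40A, a name of the tetraspanin family of membrane proteins, was lower after HP1a RNAi. It had 152 and 227 normalized counts in HP1a RNAi, against 560 and 629 in GFP RNAi. These values rest on 189 and 239 reads in HP1a RNAi and on 599 and 451 reads in GFP RNAi. Both HP1a RNAi libraries were far below both controls, and the groups did not overlap. The mean was 190 ± 53.1 in HP1a RNAi and 595 ± 48.1 in GFP RNAi (SD, n = 2 each), which left 32.0% of the control level. The log2 difference of log2(normalized count + 1) was -1.67 with a limma standard error of 0.21. In bulk RNA, fewer cells that express a gene and less of its RNA per cell cannot be told apart.

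CG11634 (FBgn0032968), a gene with no role given in the sources used here, showed almost the same change. It had 181 and 253 normalized counts in HP1a RNAi, against 648 and 728 in GFP RNAi, from 225 and 266 reads in HP1a RNAi and 692 and 522 reads in GFP RNAi. Again the control libraries were both higher than either HP1a RNAi library. The mean was 217 ± 50.7 in HP1a RNAi and 688 ± 56.6 in GFP RNAi (SD, n = 2 each), or 31.6% of the control level. Its log2 difference was -1.67 with a limma standard error of 0.19.

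CG31600 and CG11634 stand head to head: their start sites face away from each other across 941 bp, and neither overlaps another annotated gene. The ratio of CG31600 to CG11634 in normalized counts was 0.840 and 0.898 in the HP1a RNAi libraries, and 0.866 and 0.864 in the GFP RNAi libraries. The ratio thus stayed within 0.840 to 0.898 over the 4 libraries, while the level of CG31600 was 3.13-fold lower in HP1a RNAi. A fairly steady ratio was not particular to this pair. The ratio of CG30440, on the other arm, to CG31600 was 1.32 and 1.31 in HP1a RNAi, and 1.35 and 1.51 in GFP RNAi. The log2 differences of CG31600 and CG11634 were 0.0073 apart. Of the listed genes, 6 pairs had divergent start sites within 2 kb, and 5 of these pairs had the same direction in both genes. In 2 of the 6 pairs both genes had a log2 difference of -1 or lower. One is CG31600 with CG11634, and the other is CG10834 with CG6675, which also lies on 2L, on the heterochromatic side. CG10834 and CG6675 start 1659 bp apart and had log2 differences of -1.53 and -1.47. Only pairs with both genes listed could be counted. CG30440 and Ugt50B3, which start 812 bp apart, were left out because Ugt50B3 was not listed. Of all 489 listed genes 305 were higher and 184 lower, and the share of same-direction pairs this would give was not derived. The pairs were chosen after their values were seen, so no conclusion about divergent pairs is drawn.

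CG30440 (FBgn0050440), on the other arm and likewise without a role in the sources used here, had the lowest share of its control level among the 4 members. It had 201 and 298 normalized counts in HP1a RNAi, against 756 and 952 in GFP RNAi, from 249 and 313 reads in HP1a RNAi and 808 and 683 reads in GFP RNAi. The control libraries differed more from each other than those of the 2L pair, and still both stood above the HP1a RNAi libraries. The mean was 249 ± 68.6 in HP1a RNAi and 854 ± 138 in GFP RNAi (SD, n = 2 each), or 29.2% of the control level. Its log2 difference was -1.79 with a limma standard error of 0.23.

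Cht3 (FBgn0250907), named Cht10 in the current annotation, encodes a chitinase, an enzyme that breaks down the chitin of insect cuticle. It was the member that was higher after HP1a RNAi. It had 196 and 221 normalized counts in HP1a RNAi, against 125 and 96.2 in GFP RNAi. The reads behind these values were 243 and 232 in HP1a RNAi, and 134 and 69 in GFP RNAi. Both HP1a RNAi libraries exceeded both controls without overlap. The mean was 208 ± 17.6 in HP1a RNAi and 111 ± 20.7 in GFP RNAi (SD, n = 2 each), a 1.88-fold difference. Its log2 difference was 0.92 with a limma standard error of 0.16.

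**Figure D1:**
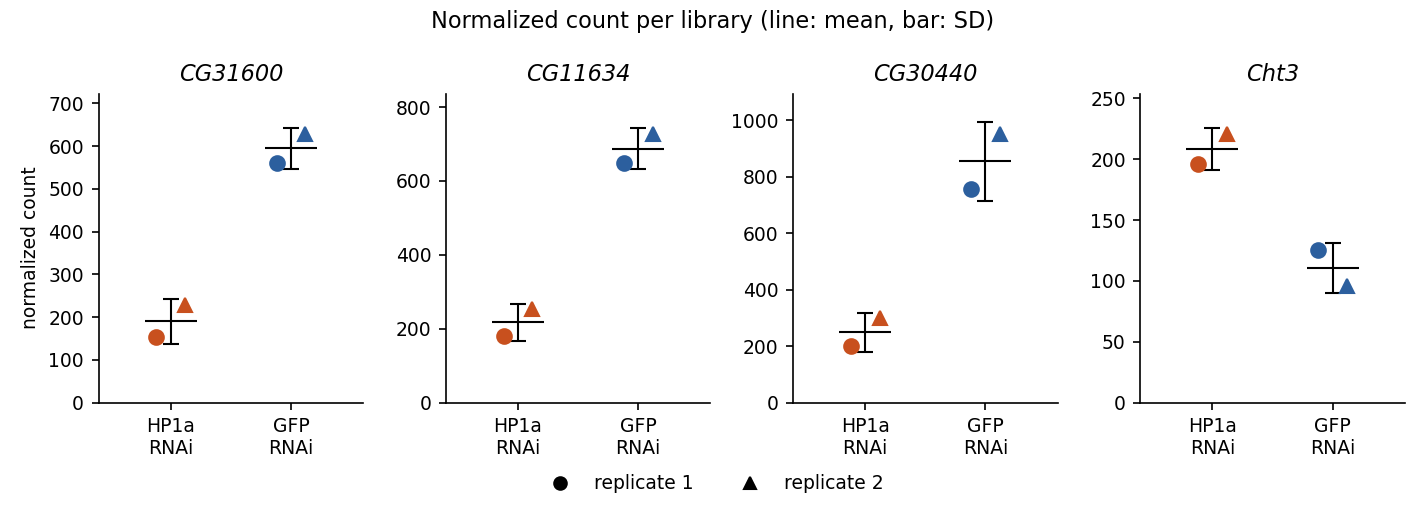
Normalized count (vertical axis, from 0) of the 4 genes in HP1a RNAi (orange) and GFP RNAi (blue). Circles are replicate 1, triangles replicate 2, lines the mean and bars the SD of 2 libraries. In CG31600, CG11634 and CG30440 both HP1a RNAi libraries lie below both controls, and in Cht3 both lie above.

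The fitted log2 fold changes in the authors' deposited table were smaller in size than these differences. They were -1.44 for CG31600, -1.49 for CG11634, -1.53 for CG30440 and 0.79 for Cht3. By the size of that fold change in the authors' deposited table, CG30440, CG11634 and CG31600 took places 4, 5 and 7 among the 189 lower features (2.28% of those tested). Cht3 took place 129 among the 346 higher features (4.18%). The adjusted p of Cht3 in the authors' deposited table was 0.00258, the highest of the 4 and inside the threshold of 0.05 that formed the list. The listed gene nearest to that threshold within 1 Mb of the boundaries was CG17493, with 0.0448 in the authors' deposited table. Genes outside the threshold were not analysed here.

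The replicates of the 3 lower members differed in the same way. Replicate 2 of HP1a RNAi stood at 38.3%, 36.8% and 34.9% of the GFP RNAi mean for CG31600, CG11634 and CG30440, and replicate 1 at 25.6%, 26.4% and 23.5%. The quotient of replicate 2 over replicate 1 in HP1a RNAi was 1.49, 1.40 and 1.48 for these genes. Its median was 1.09 over the 24 features with a deposited log2 fold change of -1 or less and 1.01 over all 535. The RNA of the HP1a gene itself was 1.22 times as high in replicate 2 as in replicate 1 of HP1a RNAi. In GFP RNAi replicate 2 was also the higher one, with quotients of 1.12, 1.12 and 1.26 for CG31600, CG11634 and CG30440 and of 1.16 for the HP1a gene. The part of the remaining HP1a RNA in the levels of these genes was not tested.

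Per kilobase of exon, the order of the members was the same in both groups. CG31600 had 204 ± 57.1 normalized counts per kb in HP1a RNAi and 640 ± 51.8 in GFP RNAi (SD, n = 2 each). CG11634 followed with 112 ± 26.04 in HP1a RNAi and 353 ± 29.1 in GFP RNAi, and CG30440 with 72.4 ± 19.9 in HP1a RNAi and 248 ± 40.2 in GFP RNAi. Cht3 was lowest, with 28.3 ± 2.38 in HP1a RNAi and 15.0 ± 2.80 in GFP RNAi. Among neighbours in this order, only CG11634 and CG30440 in HP1a RNAi lay within their SDs of each other.

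The gene structures had little in common. CG31600 is a compact gene of 1090 bp with 85.2% of its length in exons, and CG11634 covers 4025 bp. CG30440 covers 27543 bp, of which only 12.5% is exonic, and Cht3 covers 26342 bp with 11 exon blocks. Transposable elements are mobile repeats that accumulate in heterochromatin. In the annotation CG30440 held 19 fragments of them, which made up 48.9% of the gene, a share that only 53 of 13968 protein-coding genes reached. All of these fragments were intronic, since 0 bp overlapped its exons. The other 3 genes held 0 annotated fragments. With 20 kb on each side included, repeats made up 10.7% around CG31600, 11.6% around CG11634, 47.7% around CG30440 and 0% around Cht3. The last value has to be read with the annotation. Annotated repeats filled 46.0% of 2L between 250 and 500 kb inside the boundary, and 4.84% between 1000 and 1250 kb inside, where Cht3 starts. Whether few repeats or few annotated ones lie there was not tested.

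**Figure D2:**
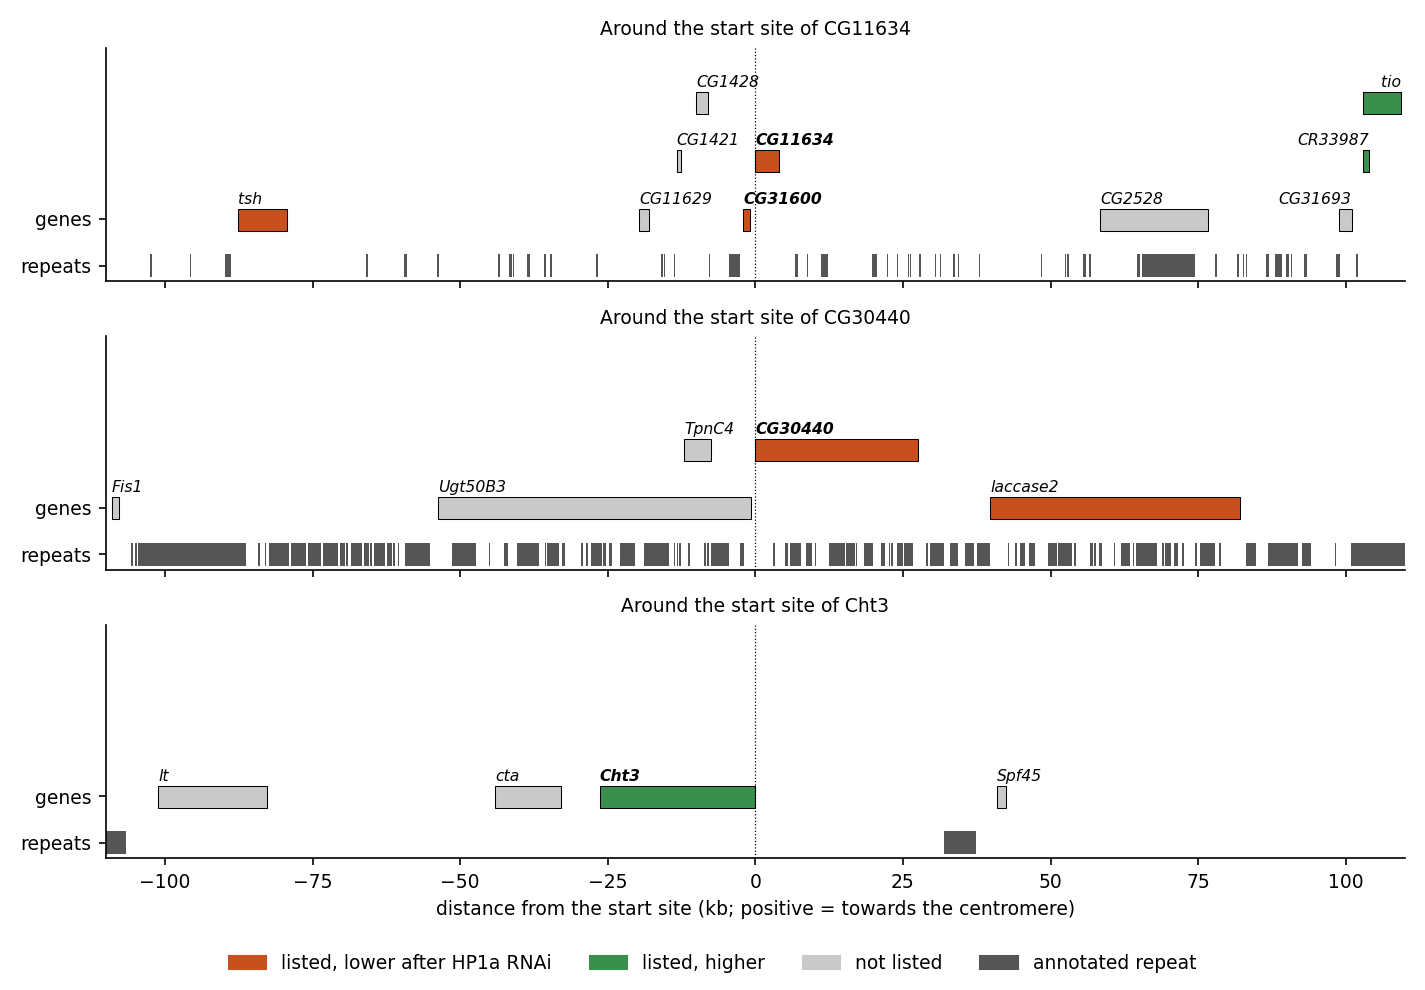
Annotated protein-coding genes, listed non-coding genes and repeats (dark bars), with unlisted non-coding genes left out, within 110 kb of the start sites of CG11634, CG30440 and Cht3; the horizontal axis is the distance in kb, positive towards the centromere. Orange genes were listed as lower after HP1a RNAi, green as higher and grey were not listed. CG31600 and CG11634 share 1 divergent start region, CG30440 is surrounded by repeats, and the genes next to Cht3 were not listed.

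Most annotated neighbours of the members were not listed. The same holds for annotated genes at large, of which 489 of 18358 were listed (2.66%). Next to the CG31600 and CG11634 pair, CG1428 (5949 bp from CG31600) and CG2528 (54.4 kb from CG11634) were not listed. The nearest listed gene on the euchromatic side was tsh, a zinc finger gene of homeotic patterning, 77.3 kb from CG31600. It had 11866 and 12021 normalized counts in HP1a RNAi, against 15932 and 16386 in GFP RNAi, with a log2 difference of -0.44 and a limma standard error of 0.08. On the heterochromatic side stood tio, the zinc finger paralogue of tsh, 98.9 kb from CG11634. It had 245 and 188 normalized counts in HP1a RNAi, against 18.7 and 23.7 in GFP RNAi, with a log2 difference of 3.29 and a limma standard error of 0.19. The control values of tio rest on only 20 and 17 reads, and its standard error in the authors' deposited table was larger, at 0.25. The non-coding CR33987 starts at the same base as tio on the same strand and had a log2 difference of 2.32, so reads of these 2 may be shared. The CG31600 and CG11634 pair, at about 3-fold lower, therefore lay between a gene that was slightly lower and one that was 10.2-fold higher.

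Around CG30440 the neighbours were fewer. It is divergent from Ugt50B3, a UDP-glycosyltransferase gene that starts 812 bp away and was not listed. On the side of the centromere, laccase2 (also straw), an oxidase gene of cuticle tanning, ends 12.2 kb away. It had 2401 and 2483 normalized counts in HP1a RNAi, against 2938 and 3288 in GFP RNAi, with a log2 difference of -0.35 and a limma standard error of 0.10. This was a far smaller difference than that of CG30440. Around Cht3, none of the nearest 3 protein-coding genes on either side was listed, which sets them apart little, since 2.66% of all annotated genes were listed. They include cta, a G protein subunit gene of gastrulation, 6622 bp away, lt, a vesicle trafficking gene 56.4 kb away, and Spf45, a splicing factor gene 40958 bp away. Genes that were not listed either did not pass or were not tested, and these cannot be told apart here.

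A wider view placed the members among the other listed genes near the boundaries. Within 1 Mb of them, 24 genes were listed, 10 higher and 14 lower, and CG31600, CG11634 and CG30440 were among the lower ones. The start site of Cht3 fell just outside this window. On the heterochromatic side 16 of 89 annotated genes were listed (18.0%), 9 of them higher and 7 lower. On the euchromatic side 8 of 338 were listed (2.37%), 1 higher and 7 lower. Of all 18358 annotated genes 489 were listed (2.66%), 305 higher and 184 lower. The shares are of annotated genes, because the number tested in a stretch is unknown. They depend on the rounded boundaries, whose positions were not varied. The median size of the log2 difference was 1.51 in the 24 genes and 0.58 in all listed genes. A deposited log2 fold change of at least 1 in size was reached by 14 of the 24 genes, or 58.3%, and by 15.5% of all listed genes. The windows hold members chosen with these results known, so no test is given.

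Genes near the boundary of 2L moved in both directions within short distances. On the heterochromatic side CG41434 (Grl40a, a gustatory receptor-like gene) had 19.4 and 29.5 normalized counts in HP1a RNAi, against 58.0 and 102 in GFP RNAi, and its log2 difference was -1.64. The adjacent CG31601 had 3972 and 4444 in HP1a RNAi, against 1730 and 2425 in GFP RNAi, a log2 difference of 1.04. CG10834 and CG6675, the lower pair described above, were followed by CG3635, with 546 and 657 normalized counts in HP1a RNAi, against 131 and 152 in GFP RNAi. Ir40a, an ionotropic receptor gene of humidity sensing, and CG17018 (Marf1, an RNA regulator of oogenesis) had log2 differences of 1.32 and 1.02. Further inside, CG17490 and CG17493 were lower by small amounts, with log2 differences of -0.42 and -0.49. CG40006 was lower by about as much as the edge pair, with a log2 difference of -1.50. On the euchromatic side CG2201 had -0.41, and dtr, 639 kb outside, was the 1 higher gene with 1.53.

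Within 1 Mb of the boundary, 7 of 128 annotated genes were listed on 2R (5.47%) and 17 of 299 on 2L (5.69%). The lower genes on the euchromatic side of the rounded boundary of 2R were scaf, a serine protease homologue gene, with a log2 difference of -0.74, laccase2 and CG30440. Annotated repeats filled 55.0% of 2R in the 250 kb outside this boundary and 57.2% in the 250 kb inside. The share of repeats thus does not mark the boundary there, and CG30440 is outside heterochromatin only by the rounded position. On 2L annotated repeats filled 34.3% between 250 and 500 kb outside, 10.3% in the 250 kb outside and 29.4% in the 250 kb inside. The share on 2L was thus not lower all along the outside. Inside the boundary of 2R, the non-coding CR42646, CR40282 and CR41440 were higher, with log2 differences of 1.97, 2.70 and 2.70. Their control levels lay between 18.7 and 33.7 normalized counts. The divergent CR40282 and CR41440 start 272 bp apart, and whether they share reads is not known. p120ctn, a cadherin-binding protein gene, was lower with -0.58. Beyond 1 Mb outside, the next listed genes of 2R were Fmo-2, CG3409, koi, Tsp42El and Aldh-III, whose log2 differences ran from -0.34 in koi to 0.89 in Tsp42El.

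**Figure D3:**
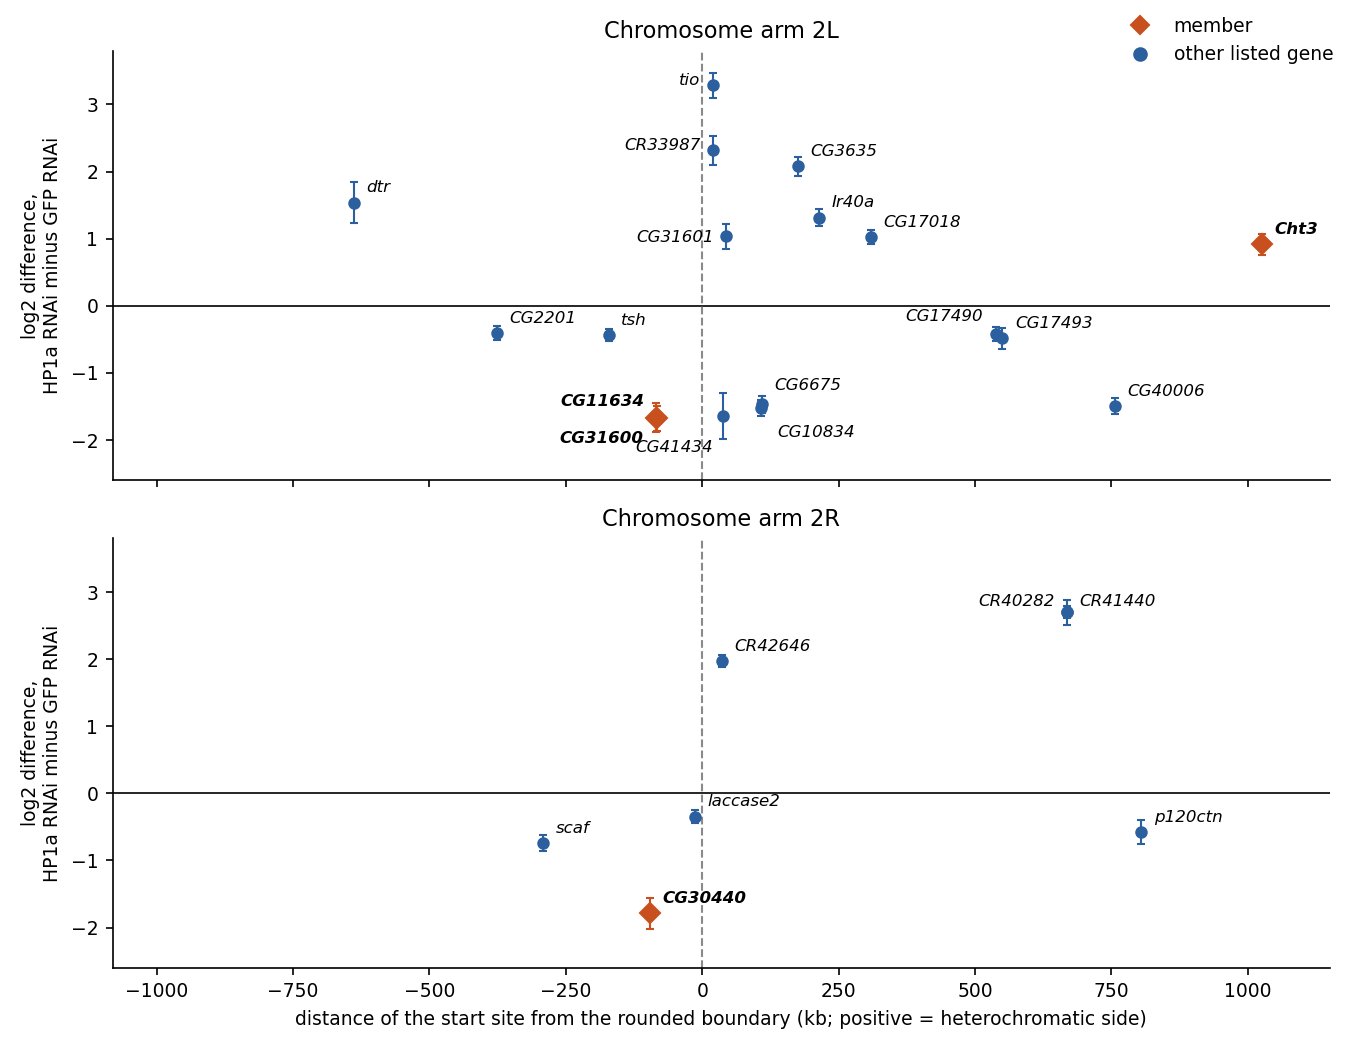
Log2 difference (HP1a RNAi minus GFP RNAi, log2(normalized count + 1); bars are limma standard errors) of each listed gene against the distance of its start site in kb from the rounded boundary of 2L (top) and 2R (bottom), positive on the heterochromatic side. Orange diamonds are CG31600, CG11634, CG30440 and Cht3, and blue circles other listed genes. The bars of genes with few reads can be too short. Within the plotted range, every listed gene of the euchromatic side but dtr is below 0, while the heterochromatic side holds genes on both sides of 0.

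The features most like each member were found by the Euclidean distance of log2 values, centred on the GFP RNAi mean, over the 4 libraries. CG31600 and CG11634 were each other's nearest feature, at a distance of 0.069. For CG30440 the nearest were CG11634 and CG31600, both at 0.21, although it lies on the other arm. The second feature for CG31600 was CG30440, at 0.21. The last of the 3 for CG31600, and the other 2 for CG11634, came from chromosome 4, a small chromosome rich in heterochromatin. These were bt, the gene of the muscle protein projectin, at 0.24 from CG31600 and 0.19 from CG11634, and Rfabg, an apolipoprotein precursor gene, at 0.19 from CG11634. bt had log2 differences of -1.72 and -1.42 from the GFP RNAi mean in the HP1a RNAi libraries, and Rfabg had -1.79 and -1.52. The third feature for CG30440 was CG6329 at 0.25, a gene of 2R far from the boundary. Cht3 was most like CG10151 (0.10), CG13321 (0.12) and CG9098 (0.15), all from euchromatin of chromosome 2. The distance covers 4 libraries only, in which the difference between the groups outweighs the rest.

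**Figure D4:**
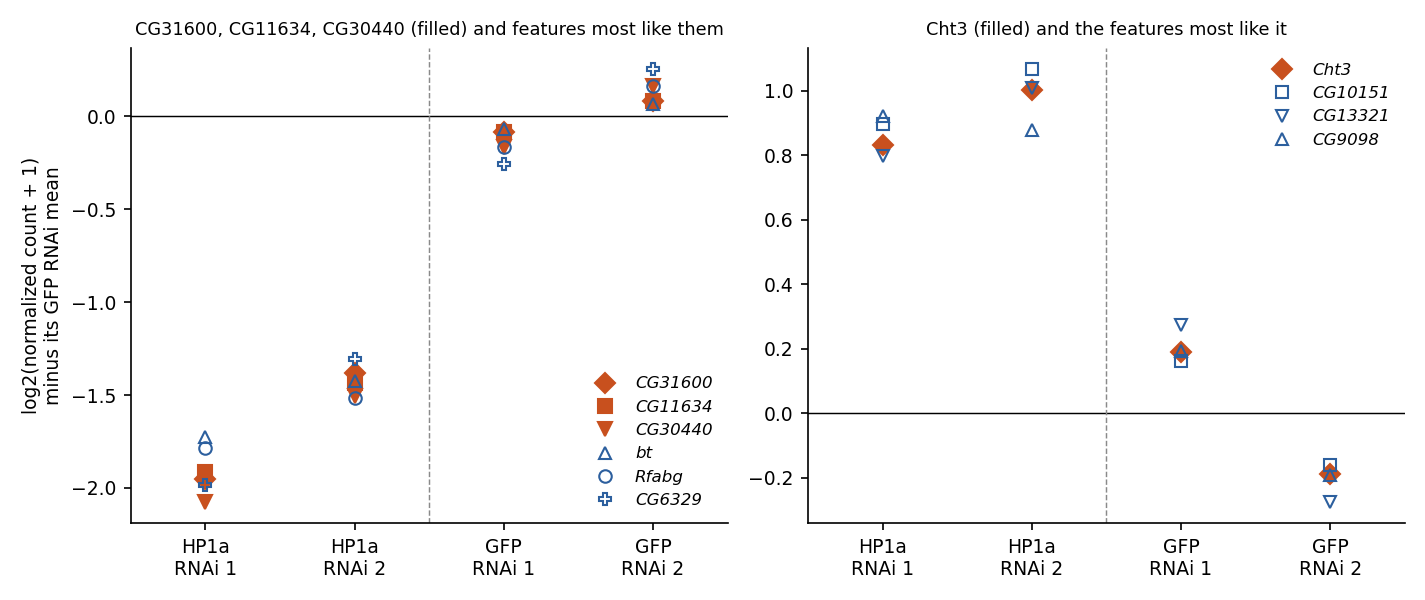
Log2(normalized count + 1) minus its GFP RNAi mean (vertical axis) in each library (horizontal axis), for CG31600, CG11634 and CG30440 with the features most like them (left) and for Cht3 with its own (right). Filled symbols are the 4 genes. In the left panel all 6 features are lower in replicate 1 than in replicate 2 of HP1a RNAi, and in the right panel all 4 are above 0 in both HP1a RNAi libraries.

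Lists of related genes held few further changes. Of 29 pericentromeric genes 4 were listed after HP1a RNAi, or 13.8%, beside 2.66% of all annotated genes, with Cht3 higher and p120ctn, AGO3 and nrm lower. AGO3, an Argonaute gene of the piRNA pathway on 3L, had 3034 and 3268 normalized counts in HP1a RNAi, against 4101 and 6079 in GFP RNAi. nrm, a cell adhesion gene on 3L, had 63.7 and 77.1 in HP1a RNAi, against 126 and 114 in GFP RNAi. Of 29 chitin and chitinase-like genes 2 were listed, or 6.90%. These were Cht3 and Idgf2, a chitinase-like growth factor gene without chitinase activity, which was lower with a log2 difference of -0.21. Both lists count Cht3, a member that had to be listed, and the lists were chosen with earlier results known. Their shares are therefore a description and no test. How many genes of each list were tested is unknown, so these shares are of annotated genes and cannot be set against the share of tested features. The 2.66% also counts non-coding genes and pseudogenes, so it is an unlike base for lists picked by gene name. Of 28 genes of heterochromatin and boundary proteins 3 were listed, or 10.7%, a share that counts the HP1a gene, the target of the RNAi. The HP1a gene and the lamin gene Lam were lower, Lam with a log2 difference of -0.30, and HP1D3csd, an HP1-related gene, was higher with 0.73. For the libraries labelled dKDM4A RNAi, where only 90 features were listed at all, 0 genes of the pericentromeric and chitin lists were listed. Of the 28 heterochromatin and boundary protein genes 3 were listed (10.7%), a share that counts Kdm4A, the gene named in the label. This share of annotated genes likewise cannot be set against the 1.19% of tested features listed for those libraries. Kdm4A was the higher one, and Cp190 and piwi were lower.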

How the data were processed

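Polyadenylated RNA was sequenced from 6 S2 cell libraries, of which 4 enter the values here. Per the submitters' processing notes, TopHat, Bowtie and DESeq2 were used, and neither their versions and roles nor a genome build was found in the labels. Per the file headers, the signal columns hold normalized counts, which the authors computed separately for each table. The log2 fold changes with their errors, the score (their quotient) and the raw and adjusted p-value columns were likewise deposited by the authors. Both tables list features with an adjusted p below 0.05 and no others. The number of tested features was derived from their Benjamini-Hochberg ranks.

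Numbers of reads were derived from the step between low values (100% of low values were whole within 0.1 reads) and serve to describe depth. Since the deposited values are normalized, a count model was not fitted. Limma 3.58.1 (R 4.3.3) was fitted to log2(normalized count + 1) over all 535 rows with a minimum mean of 1, and was tested on simulated data. Its standard errors are printed, without p-values, because the rows were selected on the same libraries. Strand, exons, neighbours and repeats came from the BDGP6 annotation, Ensembl release 115. The library kit is not stated to keep strand. Python 3.11.15, numpy 2.4.6, pandas 2.3.3 and matplotlib 3.10.9 were used.

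The members, boundaries and lists were chosen with earlier results of these data known. Named genes were the members, the targets, listed genes within 100 kb of a member, the listed genes nearest the boundaries, the 3 features most like each member and listed members of the lists. Replicate numbers were not taken as pairs, since no label ties them. Alternatives were pseudocounts of 0.1 and 5, no filter, a replicate block, each library left out, windows of 0.5 and 2 Mb and a fold threshold.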

Additional observations from a re-analysis of the deposited data

How the results depend on the processing

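The log2 differences of CG31600, CG11634, CG30440 and Cht3 kept their sign under pseudocounts of 0.1 and 5, without the filter, with the replicate block and with each library left out. Since the groups did not overlap in any of these genes, none of these settings could turn the sign, and only the sizes are informative. With 1 library left out the log2 differences ran between -1.95 and -1.38, -1.91 and -1.44, -2.07 and -1.51, and 0.73 and 1.11, and the lone library was assumed to vary like the other group. Limma called 525 of the 535 preselected features, between 525 and 526 with other pseudocounts and no filter, and 513 with the replicate number as a block. The deviations of same-numbered libraries correlated with r = 0.24 across features, which does not pair them. Leaving out single libraries gave 334 to 383 calls, with 334 without HP1a RNAi replicate 2, where fewer libraries entered. Near the boundaries 10 higher and 14 lower genes became 7 and 10 within 0.5 Mb, 14 and 16 within 2 Mb, and 7 and 7 at a deposited log2 fold change of at least 1 in size, a stricter threshold by construction. Of the 3 features most like each member, all 3 were shared at a pseudocount of 5, except for CG30440 with 2. Low reads limit Cht3 most, with 69 in GFP RNAi replicate 2.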

Other observations

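CG30440 was lower after HP1a RNAi while repeats of the families inside its introns were higher. Its 19 annotated fragments belong to 15 families, and 5 of these were also listed as repeat consensus sequences under the same name, apart from a species tag. jockey2 had 144 and 123 normalized counts in HP1a RNAi, against 40.2 and 46.0 in GFP RNAi, a 3.09-fold difference. Rt1a had 441 and 446 in HP1a RNAi, against 167 and 142 in GFP RNAi, and Fw2 had 172 and 166 in HP1a RNAi, against 65.5 and 57.1 in GFP RNAi. These were 2.88-fold and 2.75-fold differences. G5A and Cr1a were 1.69-fold and 1.42-fold higher. Of all 46 listed repeat sequences 41 were higher, so the direction of these 5 is that of most listed repeats. A consensus sequence collects reads from all copies in the genome, so these values do not tell what the copies inside CG30440 did. The families were looked up after their values were seen.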
